A study of Chlamydomonas reinhardtii with 9 samples.

Results

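The photoprotection genes described here are LHCSR1, LHCSR3.1, LHCSR3.2, PSBS1 and PSBS2 of Chlamydomonas reinhardtii, a unicellular green alga. They were chosen by gene ID, 5 of the 14621 genes listed in the deposited tables, and all 5 IDs were found. The names come with the list of IDs, since neither the deposited tables nor the gene table used here pairs these IDs with symbols. Messenger RNA was sequenced in 9 libraries, 3 each of wild type and of the mutants crpaf1-1 and crskip-1. All cultures carry the strain label CC5325, and per the labels they grew at 22 °C in liquid TAP, a medium that supplies acetate, with 14 h light and 10 h dark, and were harvested late in G1, before division. PAF1 belongs to a complex that accompanies RNA polymerase II during elongation, and SKIP is a conserved spliceosome protein with a role in transcription as well. Each mutant is 1 named line, and what its mutation is was not stated in the sources used here.

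Photosynthetic cells that absorb more light than they can use release the excess as heat, a process called non-photochemical quenching. In Chlamydomonas the LHCSR proteins, relatives of the light-harvesting antenna that bind chlorophyll and carotenoids, carry out this quenching when the thylakoid lumen turns acidic. LHCSR3 is known for its induction by high light and low CO2, LHCSR1 for a response to UV-B as well, and PSBS, the protein that triggers quenching in land plants, is made in this alga only transiently after a shift to strong light or UV-B.

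Library totals ranged from 13907142 to 19725439 counts. Per the file headers, lane 3 held the first replicate of every group and lane 2 the other two, so lanes were balanced over groups. Within each group the libraries differed beyond sampling noise (chi-square divided by its degrees of freedom, 2.42 to 4.17). The labels do not state that replicates came from separate cultures, so a p-value here reflects variation among these libraries, and that variation may be technical. The levels of the mutated genes were not analysed here, so the labels were not checked by them. Levels are given as CPM, counts per 1000000 scaled between libraries by TMM, a method that balances the bulk of genes. A gene passed, and is said to have risen or fallen, when its adjusted p was under 0.05 in edgeR's quasi-likelihood test with Benjamini-Hochberg adjustment over the 13376 genes tested.

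The 3 LHCSR genes were measured at moderate to low levels, and both PSBS genes at the edge of detection. LHCSR1 moved in opposite directions in the mutants, falling 2.42-fold in crpaf1-1 and rising 1.71-fold in crskip-1. The LHCSR3 copies fell in both mutants, most in crskip-1, where LHCSR3.1 was 11.0-fold and LHCSR3.2 13.0-fold lower than in wild type. In crpaf1-1 the libraries of both copies overlapped with wild type, and neither fall passed under every alternative tried. Of the 5 genes, 3 had enough counts to be tested, and 2 did not.

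**Figure D1:**
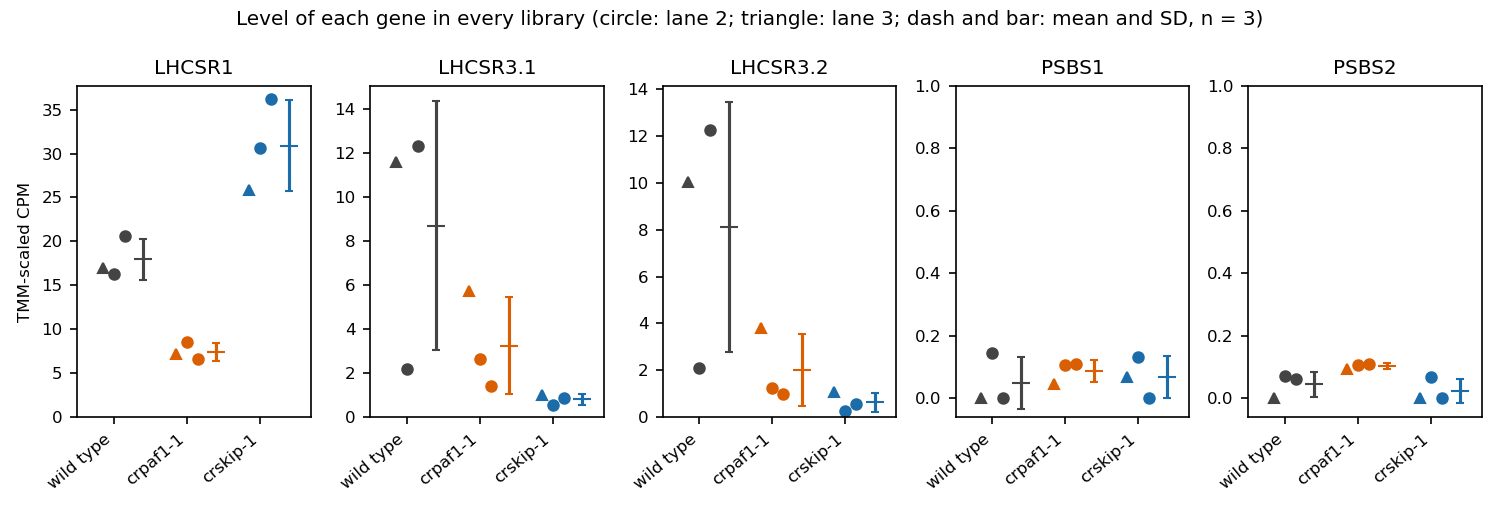
TMM-scaled CPM (linear axes, a separate scale for each LHCSR gene) of the 5 genes in each of the 9 libraries, by group, with the group mean and SD (n = 3) beside the points. LHCSR1 separates the 3 groups, LHCSR3.1 and LHCSR3.2 spread widely in wild type and crpaf1-1 and lie low in crskip-1, and no PSBS value exceeds 0.145 CPM.

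LHCSR1 (Cre08.g365900_4532.v6.1) lies on chromosome 8 (minus strand, 1648651 to 1651311 in the coordinates of the deposited files), with 3 exon blocks, that is, exons merged where they overlap, of 2262 bases in all. In wild type replicates 1 to 3 it measured 16.9, 16.3 and 20.7 CPM, from 293, 226 and 339 counts. In crpaf1-1 it measured 7.22, 8.53 and 6.55 CPM, from 154, 161 and 118 counts. In crskip-1 it measured 25.9, 30.6 and 36.2 CPM, from 383, 458 and 462 counts. The 3 groups did not overlap, with every crpaf1-1 library below and every crskip-1 library above all wild-type libraries.

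LHCSR1 averaged 18.0 ± 2.35 CPM in wild type, against 7.44 ± 1.01 in the crpaf1-1 mutant and 30.9 ± 5.18 in the crskip-1 mutant (SD, n = 3 each). The log2 fold change against wild type was -1.28 (SE 0.13) in crpaf1-1, with an adjusted p of 3.07e-07 in edgeR's quasi-likelihood test. In crskip-1 it was 0.77 (SE 0.12), with an adjusted p of 2.81e-05 in the same test. Compared directly, crpaf1-1 was 4.14-fold below crskip-1 (log2 -2.05, SE 0.13, edgeR adjusted p = 7.12e-10). The mutants' changes against wild type share the same 3 control libraries, and the direct comparison does not use those libraries as a reference. Within lane 2 the log2 fold changes were -1.30 in crpaf1-1 and 0.83 in crskip-1, and in lane 3, with 1 library per group, the levels kept the same order.

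Taken 1 comparison at a time, falls and rises were common among all genes. How many genes moved in opposite directions in the mutants, as LHCSR1 did, was not counted here. In crpaf1-1 against wild type, 29.8% of tested genes were lower, and in crskip-1 24.4% were higher. The libraries of the groups did not overlap for 32.1% of genes in the lower direction in crpaf1-1 and for 28.0% in the higher direction in crskip-1. In absolute log2 fold change, 5.41% of genes moved more than LHCSR1 in crpaf1-1 and 11.4% moved more in crskip-1. Between the mutants 53.8% of genes differed. Of all tested genes 28.2% were lower in crpaf1-1, 30.7% were lower without overlap of libraries, and 1.17% differed by more than LHCSR1.

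LHCSR3.1 and LHCSR3.2 encode near-identical proteins, and together they are what is called LHCSR3, the main quencher under strong light. LHCSR3.2 (Cre08.g367400_4532.v6.1) lies on chromosome 8 (minus strand, 1874560 to 1876960), with 4 exon blocks of 1805 bases. LHCSR3.1 (Cre08.g367500_4532.v6.1) lies on the plus strand from 1886059 to 1888346, with 4 exon blocks of 1697 bases. The copies are arranged head to head, so that both are transcribed outward from a shared interval of 9098 bases that holds 0 listed genes. Since only uniquely mapped reads were counted, reads that both copies share may be missing, and the level of each copy is uncertain.

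LHCSR3.1 measured 11.6, 2.17 and 12.3 CPM in wild type replicates 1 to 3, from 201, 30 and 202 counts. In crpaf1-1 it measured 5.72, 2.65 and 1.39 CPM, from 122, 50 and 25 counts. In crskip-1 it measured 1.01, 0.535 and 0.862 CPM, from 15, 8 and 11 counts. Wild type replicate 2 stood far below the other two wild-type libraries and fell among the crpaf1-1 libraries, so those groups overlapped. Every crskip-1 library was below every wild-type and every crpaf1-1 library.

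LHCSR3.2 measured 10.1, 2.10 and 12.3 CPM in wild type, from 174, 29 and 201 counts. In crpaf1-1 it measured 3.80, 1.22 and 1.00 CPM, from 81, 23 and 18 counts. In crskip-1 it measured 1.08, 0.267 and 0.549 CPM, from 16, 4 and 7 counts. The second copy thus followed the first library by library, with the same low wild-type library. Here crpaf1-1 replicate 1 lay above wild type replicate 2, and crskip-1 replicate 1 above crpaf1-1 replicate 3, so crpaf1-1 overlapped with both other groups.

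In crskip-1 the fall of both copies was larger than the spread between libraries. LHCSR3.1 averaged 8.70 ± 5.67 CPM over the wild-type libraries and 0.803 ± 0.244 over those of crskip-1 (SD, n = 3 each), a log2 fold change of -3.46 (SE 0.61, edgeR adjusted p = 0.000137). For LHCSR3.2 the means were 8.14 ± 5.35 and 0.632 ± 0.413 CPM, a log2 fold change of -3.70 (SE 0.63, edgeR adjusted p = 0.000108). Only 17 of the 13376 tested genes had a larger absolute log2 fold change in crskip-1 than LHCSR3.1, and 13 a larger one than LHCSR3.2, while 25.1% of genes were lower there. A fall without overlap of libraries was seen for 28.5% of genes. In lane 2 alone the log2 fold changes were -3.43 and -4.20. Without crskip-1 replicate 1, the log2 fold change of LHCSR3.2 was -4.36.

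In crpaf1-1 the fall of LHCSR3 passed in edgeR's quasi-likelihood test, but rested on wide-ranging libraries. LHCSR3.1 averaged 3.25 ± 2.23 CPM in crpaf1-1 (SD, n = 3), a log2 fold change of -1.41 against wild type (SE 0.43, edgeR adjusted p = 0.00955). LHCSR3.2 averaged 2.01 ± 1.56 CPM, a log2 fold change of -2.001 (SE 0.46, edgeR adjusted p = 0.00136). The fall of LHCSR3.1 no longer passed in DESeq2 (adjusted p = 0.116) or without wild type replicate 3 (edgeR adjusted p = 0.0613). With a shrinkage of the dispersion that allows for unusually variable genes, an alternative added after the data were seen, neither copy passed in edgeR (adjusted p = 0.128 for LHCSR3.1 and 0.0583 for LHCSR3.2). Without crpaf1-1 replicate 1 the log2 fold changes were -2.13 and -2.90, and in lane 2 alone -1.88 and -2.73.

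Between the mutants, both copies were measured higher in crpaf1-1, and with all 9 libraries in 1 fit LHCSR3.1 passed and LHCSR3.2 did not. Its log2 difference was 2.05 (SE 0.70, edgeR adjusted p = 0.0195), without overlap of libraries, where 25.7% of all genes were higher in crpaf1-1 and 28.6% were higher without overlap. It did not pass without crpaf1-1 replicate 1 (log2 1.34, edgeR adjusted p = 0.131), without crskip-1 replicate 2 (log2 1.82, edgeR adjusted p = 0.0831) or in lane 2 alone (log2 1.56, edgeR adjusted p = 0.15). The log2 difference of LHCSR3.2 was 1.70 (SE 0.78, edgeR adjusted p = 0.0778), which does not show that the mutants were alike for this copy. Without crpaf1-1 replicate 1 it was 0.80, without crskip-1 replicate 1 it was 2.36, and without crpaf1-1 replicate 3 it passed at 2.00 (edgeR adjusted p = 0.0414). It also passed with only the 2 mutants in the fit (edgeR adjusted p = 0.014), and over all alternatives its adjusted p ran from 0.00692 to 0.448. LHCSR1 differed between the mutants in the other direction.

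**Figure D2:**
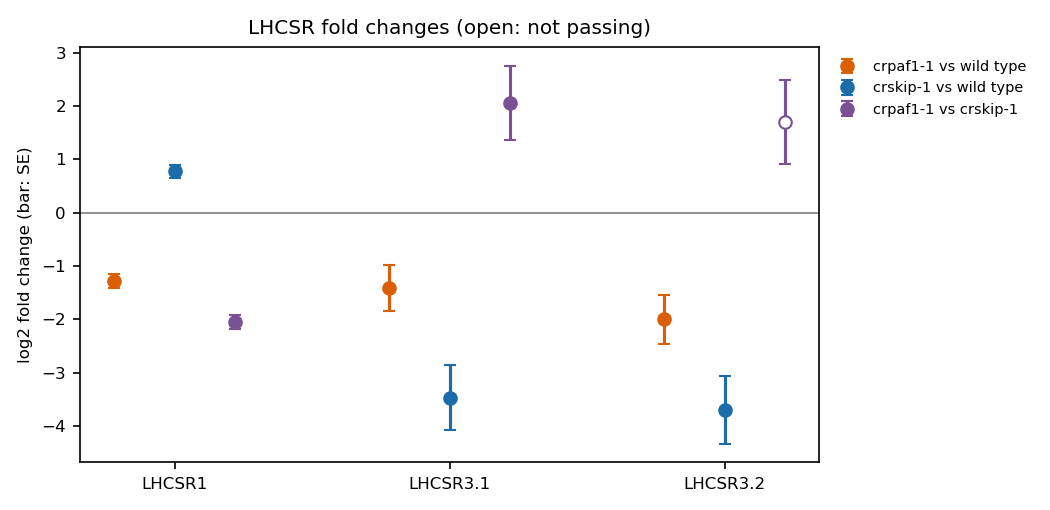
Log2 fold change (vertical axis, bars are SE) of LHCSR1, LHCSR3.1 and LHCSR3.2 in crpaf1-1 against wild type, crskip-1 against wild type and crpaf1-1 against crskip-1, with open points where the adjusted p was 0.05 or more. LHCSR1 has short error bars and opposite signs in the mutants, while the LHCSR3 copies are negative against wild type in both mutants with SE of 0.43 to 0.63.

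With the copies summed, LHCSR3 measured 21.7, 4.27 and 24.6 CPM in the wild-type libraries, in replicate order. In crpaf1-1 the summed level was 9.52, 3.87 and 2.39 CPM, and in crskip-1 it was 2.09, 0.802 and 1.41 CPM. Every crskip-1 library was below every other library, and wild type replicate 2 again lay among the crpaf1-1 values. Among single tested genes, 28.5% were lower without overlap in crskip-1 than in wild type, and 28.6% higher in crpaf1-1 than in crskip-1. The sum, fitted as 1 feature, had a log2 fold change of -1.67 (SE 0.44) for crpaf1-1 and -3.57 (SE 0.60) for crskip-1 against wild type.

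LHCSR3.1 gave a mean of 51.5% ± 1.83 of the pair's counts in wild type, 62.2% ± 5.50 in the crpaf1-1 mutant and 58.7% ± 9.37 in the crskip-1 mutant (SD, n = 3 each). The crpaf1-1 libraries, at 60.1, 68.5 and 58.1%, were all above the wild-type libraries, at 53.6, 50.8 and 50.1%. The difference of 10.7 percentage points had a two-sided exact permutation p of 0.1, the smallest that 3 libraries against 3 allow, and 0.3 after Benjamini-Hochberg adjustment over 3 pairs of groups. The crskip-1 shares of 48.4, 66.7 and 61.1% rested on 31, 12 and 18 counts and overlapped with both other groups (exact permutation p = 0.4 against wild type, 0.6 adjusted, and 0.7 against crpaf1-1, 0.7 adjusted). For crskip-1 replicate 2 the exact Clopper-Pearson 95% interval ran from 34.9 to 90.1%, which covers counting error only. With 3 libraries per group this test cannot give a p under 0.05. It therefore cannot decide whether the split between the copies shifted.

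The spread of LHCSR3 between replicates was unusual among genes. The log2 CPM of LHCSR3.1 had an SD of 1.42 over the wild-type libraries, a 5.68-fold range, and 13 of 13352 genes with a count in every wild-type library had a larger one. In crpaf1-1 its SD was 1.02 (35 of 13369 genes larger), and in crskip-1 0.479 (477 of 13348 genes larger). LHCSR3.2 had SDs of 1.40, 1.04 and 1.01 in the same order. LHCSR1 varied far less, with SDs of 0.183, 0.192 and 0.243. Lane 3 held the highest LHCSR3 library of crpaf1-1 and of crskip-1, while the highest of wild type was in lane 2.

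The LHCSR genes were also compared with each other. For this, levels were divided by exonic length, as CPM per kilobase (kb). Reads that the LHCSR3 copies share may be missing, so the LHCSR3 values may be too low against those of LHCSR1. LHCSR1 measured 7.49, 7.23 and 9.14 CPM per kb in wild type, where LHCSR3.1 and LHCSR3.2 together measured 12.4, 2.44 and 14.0. In crpaf1-1 LHCSR1 measured 3.19, 3.77 and 2.90 CPM per kb and the LHCSR3 pair 5.48, 2.24 and 1.37. In crskip-1 LHCSR1 measured 11.4, 13.5 and 16.0 CPM per kb and the LHCSR3 pair 1.20, 0.463 and 0.812.

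LHCSR1 thus made up 37.6, 74.8 and 39.4% of the LHCSR level per length in wild type, 36.8, 62.8 and 67.9% in crpaf1-1 and 90.5, 96.7 and 95.2% in crskip-1. The crskip-1 libraries lay above all others, and crpaf1-1 overlapped with wild type. The summed LHCSR level per length ranged from 9.67 to 23.2 CPM per kb in wild type, from 4.27 to 8.67 in crpaf1-1 and from 12.6 to 16.8 in crskip-1. All crpaf1-1 libraries were below all others in this sum, while crskip-1 lay inside the wild-type range. Among single tested genes, 32.1% were lower without overlap in crpaf1-1 than in wild type, and 30.7% were lower than in crskip-1. No such background was computed for the share of LHCSR1. The LHCSR sums and shares are descriptions, and were not tested. With LHCSR3 reads possibly missing, the LHCSR1 shares may be too high and the sums too low.

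**Figure D3:**
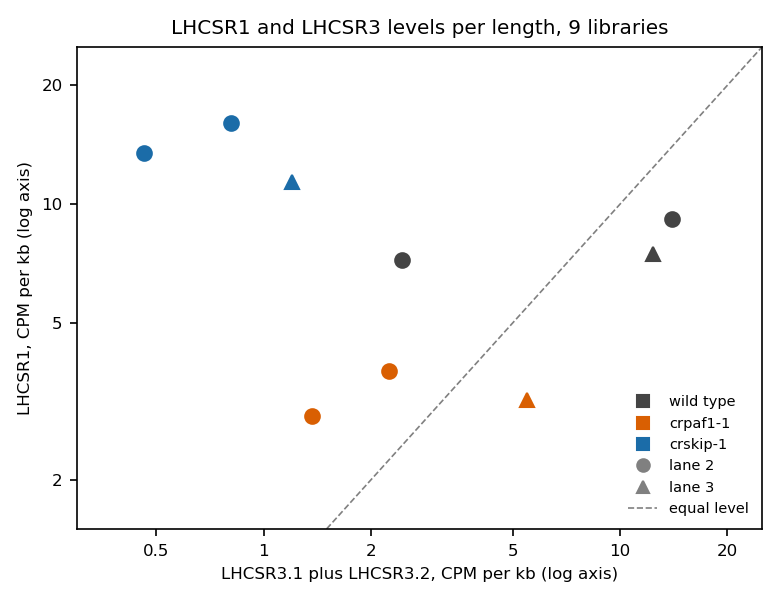
LHCSR1 (vertical) against the sum of LHCSR3.1 and LHCSR3.2 (horizontal), in CPM per kb on log axes, with 1 point for each of the 9 libraries, coloured by group and shaped by lane, and a dashed line of equal level. The 3 crskip-1 libraries sit far above the line, at LHCSR3 values of 0.463 to 1.20, and crpaf1-1 libraries lie lowest in LHCSR1 at 2.90 to 3.77. LHCSR3 values may be too low, since reads shared by its copies may be missing.

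Set against all tested genes, LHCSR1 had a mean level per length above that of 57.6% of genes in wild type, and of 36.0% in the crpaf1-1 and 70.2% in the crskip-1 mutant. LHCSR3.1 stood above 46.3% of genes in wild type, 24.2% in the crpaf1-1 mutant and 6.87% in the crskip-1 mutant, and LHCSR3.2 above 42.8, 14.7 and 4.79%. In wild type the order by mean level per length was LHCSR1, at 7.95 ± 1.04 CPM per kb, then LHCSR3.1, at 5.13 ± 3.34, then LHCSR3.2, at 4.51 ± 2.96 (SD, n = 3 each). LHCSR1 and LHCSR3.1 differed by less than the SD of LHCSR3.1 but by more than that of LHCSR1, and LHCSR3.1 and LHCSR3.2 by less than the SD of either. Reads missing from the LHCSR3 copies could change this order, and the ranks of both copies may be too low. In crskip-1 LHCSR1, at 13.7 ± 2.29 CPM per kb, stood apart from LHCSR3.1, at 0.473 ± 0.144, and LHCSR3.2, at 0.350 ± 0.229.

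PSBS1 (Cre01.g016600_4532.v6.1) lies on chromosome 1 (plus strand, 2754071 to 2756005), and PSBS2 (Cre01.g016750_4532.v6.1) on the minus strand from 2762556 to 2764573, each with 3 exon blocks. PSBS1 gave 0, 2 and 0 counts in wild type, 1, 2 and 2 in crpaf1-1 and 1, 2 and 0 in crskip-1. PSBS2 gave 0, 1 and 1 counts in wild type, 2, 2 and 2 in crpaf1-1 and 0, 1 and 0 in crskip-1. Over all 9 libraries that is 10 and 9 counts. Both genes fell below the filter on low counts, and no fold change is given.

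A count of 0 allows a level of up to 3 counts per library, or 0.152 to 0.216 CPM over the 9 libraries, and every PSBS value was under its own library's limit. Summed over each group, PSBS1 measured 0.0425 CPM, here per total counts without TMM, in wild type (exact Poisson 95% interval 0.00515 to 0.154), 0.0919 in crpaf1-1 (0.0298 to 0.214) and 0.0654 in crskip-1 (0.0135 to 0.191). PSBS2 measured 0.0425 (0.00515 to 0.154), 0.110 (0.0405 to 0.240) and 0.0218 (0.000552 to 0.121) in the same order. The intervals, which cover counting error only, overlapped for both genes. Such overlap is no test, and none was run between groups at these counts, so whether the groups differed is undecided. Reads shared by the near-identical copies may be missing here too. In all, 402 of 14621 listed genes (2.75%) had no library above 2 counts, the highest PSBS count.

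Over the 3 LHCSR genes that could be tested, 3 were lower in crpaf1-1, and 1 was higher and 2 lower in crskip-1. Of all tested genes 29.8% were lower in crpaf1-1, and in crskip-1 24.4% were higher and 25.1% lower. The LHCSR3 calls in crpaf1-1 are those lost with robust dispersion. Over the 3 genes the median log2 fold change was -1.41 for crpaf1-1 and -3.46 for crskip-1, where the median of all tested genes was 0.01 and 0.00. The LHCSR3 copies may share reads, and they count as 1 gene rather than as independent members.

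Genes next to the members moved in both directions. The 9 nearest, intervening or overlapping genes were all tested. In crpaf1-1 5 were higher and 2 lower, where 28.6% of all tested genes were higher and 29.8% lower. In crskip-1 5 were higher and 2 lower, where 24.4% of all tested genes were higher and 25.1% lower. Among the 5 higher in each mutant, Cre01.g800053_4532.v6.1 passed the filter on low counts only through its crpaf1-1 libraries, where it was highest. Its call in crskip-1 was close to the threshold (edgeR adjusted p = 0.0485). In either direction, 58.4% of all genes were called in crpaf1-1 and 49.5% in crskip-1. The median log2 fold change of the 9 neighbours was 0.25 in crpaf1-1 and 0.21 in crskip-1. Their products are not named in the tables used here.

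Flanking the LHCSR3 pair, Cre08.g367300_4532.v6.1 measured 77.4 ± 0.953 CPM in wild type, against 66.9 ± 2.64 in the crskip-1 libraries (SD, n = 3), a log2 fold change of -0.21 (SE 0.05, edgeR adjusted p = 0.00296). On the other side, Cre08.g367600_4532.v6.1 measured 34.0 ± 1.70 CPM in wild type, against 34.4 ± 2.18 in the crskip-1 libraries (edgeR adjusted p = 0.855). In crpaf1-1 these genes moved by log2 -0.22 (SE 0.05) and 0.25 (SE 0.07). The exons of Cre08.g367350_4532.v6.1, on the opposite strand, overlap those of LHCSR3.2 by 160 bases. Whether counting used strand was not stated in the sources used here, so counts of LHCSR3.2 are uncertain for this reason as well. That gene rose where LHCSR3.2 fell, at 13.4 ± 1.56 CPM in wild type, 16.2 ± 0.942 in the crpaf1-1 libraries and 18.1 ± 1.80 in those of crskip-1 (SD, n = 3), with log2 fold changes of 0.28 (SE 0.10) and 0.44 (SE 0.10).

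Beside LHCSR1, Cre08.g365851_4532.v6.1, 1030 bases away, fell in both mutants, with log2 fold changes of -0.98 (SE 0.10) for crpaf1-1 and -1.39 (SE 0.11) for crskip-1. On the other side Cre08.g365950_4532.v6.1 rose in both, with 0.53 (SE 0.10) and 0.64 (SE 0.10). Neither followed the opposite changes of LHCSR1.

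The PSBS copies face each other across 6550 bases that hold 2 listed genes. One of them, Cre01.g016700_4532.v6.1, rose in both mutants, from 22.0 ± 0.969 CPM to 34.9 ± 0.966 in the crpaf1-1 libraries and 28.9 ± 1.42 in those of crskip-1 (SD, n = 3). The other, Cre01.g800053_4532.v6.1, is one of the neighbours counted as higher in both mutants, and is a single exon block with 1, 1 and 0 counts in wild type, 18, 15 and 25 in crpaf1-1 and 2, 5 and 3 in crskip-1. With only 2 counts in wild type its fold is poorly determined. Per total counts its summed level was 25.1 times that of wild type in crpaf1-1, with a 95% counting interval of 6.63 to 212, and 5.12 times in crskip-1 (1.09 to 48.1). Outside the pair, Cre01.g016570_4532.v6.1 did not pass in either mutant, and Cre01.g016800_4532.v6.1 measured log2 0.12 in crpaf1-1, where it did not pass, and 0.21 in crskip-1, where it rose. Transcripts were thus counted on both sides of the PSBS genes and between them, while the PSBS genes themselves gave 0 to 2 counts per library. Reads shared by the near-identical PSBS copies may be missing, so their counts may be too low for this contrast.

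**Figure D4:**
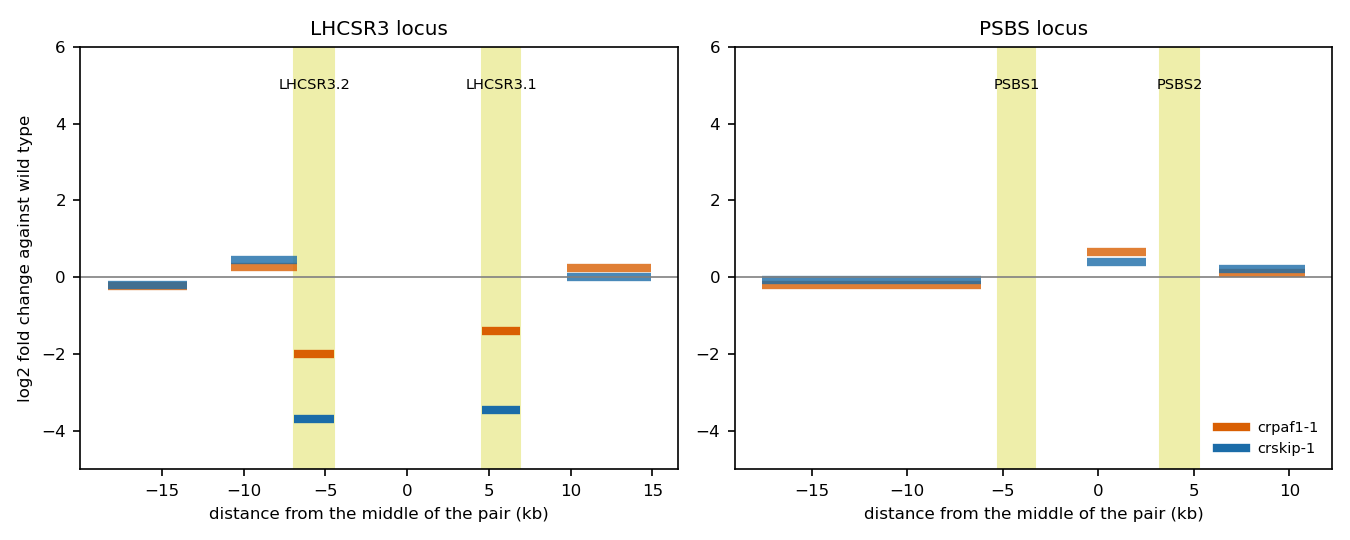
Log2 fold change against wild type (vertical axis) of the genes at the LHCSR3 and PSBS loci, drawn from each gene's start to its end as distance in kb from the middle of the pair, with crpaf1-1 and crskip-1 in separate colours and the members shaded. The LHCSR3 copies stand well below their neighbours, and the PSBS copies carry no value, nor does a gene between them with a wild-type library at 0 counts.

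The genes whose pattern over the 9 libraries was most like that of LHCSR1 were Cre01.g049300_4532.v6.1 and Cre08.g373200_4532.v6.1. Likeness was the root mean square difference of log2 CPM after subtracting each gene's mean, and it was 0.183 and 0.205. Cre01.g049300_4532.v6.1 measured 6.94, 6.65 and 7.50 CPM in wild type, 2.53, 3.29 and 3.67 in the crpaf1-1 libraries, and 9.99, 12.0 and 13.8 in those of crskip-1. Cre08.g373200_4532.v6.1, a gene of 60 exon blocks on the same chromosome as LHCSR1, measured 10.7 to 12.7 CPM in wild type, 5.09 to 5.53 CPM in crpaf1-1 and 18.9 to 22.1 CPM in crskip-1. Both, like LHCSR1, were lowest in crpaf1-1 and highest in crskip-1 without overlap. They were picked for likeness to LHCSR1 over these libraries, so this order follows from that choice and is a description.

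For LHCSR3.1, LHCSR3.2 was the closest of all tested genes, at 0.406. Next came Cre04.g223300_4532.v6.1, at 0.501, and Cre06.g281600_4532.v6.1, at 0.546. Cre04.g223300_4532.v6.1 measured 59.8, 16.3 and 44.8 CPM in wild type, 21.0, 8.85 and 5.66 in the crpaf1-1 libraries, and 7.63, 2.34 and 2.12 in those of crskip-1. Cre06.g281600_4532.v6.1 measured 72.2, 16.3 and 62.2 CPM in wild type, 42.8, 12.7 and 12.0 in the crpaf1-1 libraries, and 9.59, 1.87 and 2.59 in those of crskip-1. Both shared the low wild type replicate 2 and the high crpaf1-1 replicate 1 of LHCSR3, at several times its level. These genes were picked for likeness over the same libraries, so what they share with LHCSR3 follows from that choice and is a description.

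**Figure D5:**
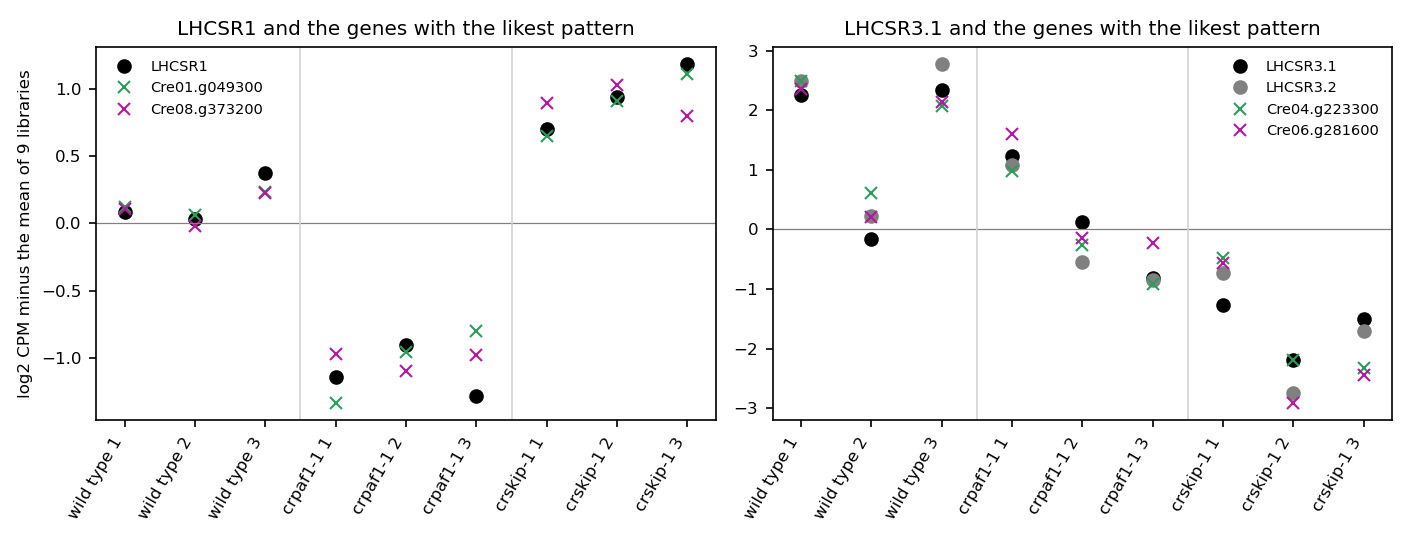
Log2 CPM minus the mean over the 9 libraries (vertical axis) for LHCSR1 with its 2 likest genes, and for LHCSR3.1 and LHCSR3.2 with the 2 genes likest to LHCSR3.1, with libraries in group order. The LHCSR1 set lies lowest in crpaf1-1 and highest in crskip-1, and the LHCSR3 set dips together in wild type replicate 2.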

How the data were processed

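The authors deposited raw counts per gene and library, not normalized. The submitters' processing notes name Bowtie2 and featureCounts, and per the file headers the alignments were uniquely mapped with duplicates removed. Tool versions, genome build and strand setting were not given in the sources used here. Gene lengths (a deposited column with no other unit) equalled the summed merged exons for all 14621 genes. The tables held 0 columns of other samples. The molecule label reads genomic DNA while the protocol describes RNA libraries, and values were treated as expression.

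Groups were compared with edgeR 4.0.16 (quasi-likelihood F test, TMM, default filterByExpr) in R 4.3.3, all 9 libraries in 1 fit without covariates. Genes under the filter (1245) held 0.0187% of counts. SE was derived from the log2 fold change and F. Alternatives included DESeq2 1.42.0. Permutation tests and exact intervals used scipy 1.17.1.

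The members and lists were chosen with earlier results of these data known. Named genes are the members, their neighbours, and the 2 genes likest in pattern to LHCSR1 and to LHCSR3.1 (0.01 CPM added before the log); PSBS1, under the filter, got none. Protein relatives, promoter motifs and other photoprotection genes had been planned but are not analysed here, because the gene table used here holds no sequences and 0 of its 17742 genes carry a symbol.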

Additional observations from a re-analysis of the deposited data

Results flagged for a closer look

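In the main fit, LHCSR1 and LHCSR3.1 differed when crpaf1-1 was compared directly with crskip-1. For LHCSR1 the log2 difference was -2.05, with all 3 crpaf1-1 libraries below wild type and all 3 crskip-1 libraries above it. Of all tested genes, 32.1% were lower without overlap in crpaf1-1 than in wild type, and 28.0% higher in crskip-1. For LHCSR3.1 the log2 difference was 2.05, with both mutants' means below wild type. This difference did not pass in 4 of 16 alternatives, whereas that of LHCSR1 passed in all.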

How the results depend on the processing

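The changes of LHCSR1 in all 3 comparisons and of both LHCSR3 copies in crskip-1 against wild type kept their direction and passed under every alternative tried: other scalings, no filter, DESeq2, a replicate block, lane, 2 groups only, robust dispersion and leaving out each library. In crpaf1-1 against wild type, LHCSR3.1 no longer passed with DESeq2 (-1.42) or robust dispersion (-1.41), where LHCSR3.2 (-2.001) did not pass either. Leaving out 1 library gave -2.13 to -1.07 for LHCSR3.1. Between the mutants, LHCSR3.1 did not pass in lane 2 alone (1.56) or with robust dispersion (2.05), and leaving out 1 library gave 1.34 to 2.40. LHCSR3.2 passed between the mutants with library size only (1.90), with the 2 groups alone (1.70) and with the replicate block (1.67), and leaving out 1 library gave 0.80 to 2.36. The cause was not tested. Fitted as 1 feature, the sum of both copies passed in all 3 comparisons (1.91 between the mutants), which is no call of either copy alone. The sum was fitted under the main settings only, not with DESeq2, robust dispersion, lane 2 alone or 1 library left out. Without TMM the median log2 fold change over all genes became 0.09 in crpaf1-1, -0.12 in crskip-1 and 0.20 between them.

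Same-numbered libraries of different groups correlated at -0.05 to 0.26 in their deviations from group means, and differently numbered ones at -0.18 to 0.13. Pairs of first replicates, all in lane 3, correlated at 0.12, 0.18 and 0.26. The numbers were not taken as pairing, and whether same-numbered libraries share an effect was not tested. With the replicate block the SE of LHCSR3.2 between the mutants was 0.48, against 0.78 without it. Apart from LHCSR3.2 between the mutants, the block changed no call of a member. The counts of genes called stayed within 1.5 times (6710 to 8176, 5604 to 7004 and 6174 to 8249 over the alternatives other than leaving out 1 library). No fold change of PSBS was computed, since its counts stayed under 3 in each library. No share of PSBS1 in its pair was compared, since 2 libraries held 0 counts of the pair.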
